A study of Mus musculus with 10 samples.

Results

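The annexin genes are described here in fibroblasts sorted from mouse pancreatic tumours. The members are 10 genes (Anxa1, Anxa2, Anxa3, Anxa4, Anxa5, Anxa6, Anxa7, Anxa8, Anxa10 and Anxa11) out of 48471 genes with a name, of which 15378 held enough counts to be tested. They were selected on earlier results of the same comparison, in which Anxa4 was among the clearest differences. For that reason their differences between the fractions are given as a description, with no test. All 10 members passed the filter on low counts. The other annexin genes of the annotation that were measured, Anxa9 and Anxa13, were not selected and are described after the members.

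RNA-seq was performed on 10 libraries of myofibroblastic cancer-associated fibroblasts (myCAFs), the contractile, matrix-producing fibroblasts of a carcinoma, separated by flow cytometry into a CD90- and a CD90+ fraction. CD90 is the surface protein encoded by Thy1. The tumours were pancreatic ductal adenocarcinomas (PDAC) grown from KPC T-LOH organoids placed orthotopically in the pancreas of C57BL/6J mice, and both fractions share this origin. Neither a treatment nor an age is given in the labels, and the design text describes the hosts as male. Both fractions of a pool carry the same animal numbers, so that 5 pools give 5 CD90- and 5 CD90+ libraries. Pools 1 to 5 held 4, 1, 2, 3 and 1 animals by the titles, 11 in all, whereas the design text counts 5 mice. Which other surface markers defined a myCAF in the sort is not stated in the sources used here.

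Depth ranged from 11.7 to 47.7 M estimated counts per library (M, mega), and nuclear genes that encode proteins received 3.71 to 28.5 M. Mitochondrial ribosomal RNA took 35.6% to 84.4% of the counts in the CD90- and 10.5% to 44.8% in the CD90+ libraries. Thy1 itself stood at 8.47 ± 5.18 CPM in the CD90- and 89.1 ± 29.5 CPM in the CD90+ fraction (CPM, counts scaled to library size, mean ± SD, n = 5). Of 12 fibroblast markers (collagens, Pdgfra, Acta2 and others) 11 were called lower in the CD90- libraries by edgeR, and none was at 0. Their summed level was 4087 to 20556 CPM in the CD90- and 32671 to 54403 CPM in the CD90+ libraries. Of 12 markers of cancer epithelium (keratins, Epcam, Cdh1 and others) 8 were called higher, with a summed level of 723 to 3063 CPM in the CD90- and 181 to 1658 CPM in the CD90+ libraries. Of 10 endothelial markers 3 were called higher, and no macrophage marker of the 7 tested was called in either direction. Endothelial markers summed to 303 CPM in the CD90- library of pool 2 and 45.0 to 68.3 CPM in the other CD90- libraries. Pericyte markers there summed to 160 CPM, against 12.0 to 32.7 CPM, and none of 6 tested was called. Of 4 acinar markers tested 1 was called higher, and of 8 mesothelial markers 1 (Msln), where the list's median log2 fold was -1.57. None of these was called lower.

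Annexins are cytosolic proteins that bind acidic phospholipids of membranes when calcium rises. Each is built of a conserved core of repeats, which holds the calcium sites, and a variable amino-terminal tail, which holds the sites for partner proteins. They act in membrane trafficking, in the resealing of wounded plasma membranes and at the cell surface, where some bind exposed phosphatidylserine or assemble plasmin. Anxa1 and Anxa2 are abundant in fibroblasts and in many epithelia, whereas Anxa4, Anxa10 and Anxa13 are known chiefly from epithelia.

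The shared core is visible in the gene structures. In the GENCODE M21 annotation (build GRCm38), exons 4 to 7 of Anxa4 are 95, 114, 91 and 80 bases long, and exons 9 to 12 are 94, 96, 59 and 123 bases long, with 1 exon of 57 bases between them. The same order of lengths, with 1 exon between the runs, was found in a coding transcript of 9 of 11 annexin genes and in 0 of the other genes among the 21945 genes searched. The exon between the runs was 57 bases in Anxa1, Anxa3, Anxa5 and Anxa11, 60 bases in Anxa2 and Anxa8, and 54 bases in Anxa10. Anxa6, the annexin with a doubled core, held each run 2 times. Anxa7 held neither run and Anxa9 only the first.

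The doubled core of Anxa6 is also where its transcripts differ, and the sequence is shown because the share of this exon varied between libraries. The long form carries an exon of 18 bases, the 21st of its 26, inside the coding sequence and a multiple of 3 in length. It lies beside the 54-base exon that separates the runs of the second core. The junction is given from the annotated transcripts, in the sense direction, with the added exon in capitals and 21 bases on either side, followed by the form without it.
Anxa6 long form: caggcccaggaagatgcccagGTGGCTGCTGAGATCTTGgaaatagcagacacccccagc
Anxa6 short form: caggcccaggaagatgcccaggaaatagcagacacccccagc

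The start regions of Anxa4 and Anxa10 are shown because these were the 2 members whose CD90- and CD90+ libraries did not overlap. Both windows are RefSeq sequences of build GRCm38.p6, from 250 bases before to 50 bases after the start, on the minus strand. The counts were made on GRCm39, so these coordinates are not those of the count files. Capitals mark matches to any of 6 motifs searched on both strands. The TATA box was searched as TATAAA and the GC box, a binding motif of SP factors, as GGGCGG. The AP-1 motif was searched as TGACTCA, the motif of the FOXA factors as TGTTTAC, the E-box as CACCTG and the motif of the TEAD factors as GGAATG.
Anxa4 chr6:86793535-86793834: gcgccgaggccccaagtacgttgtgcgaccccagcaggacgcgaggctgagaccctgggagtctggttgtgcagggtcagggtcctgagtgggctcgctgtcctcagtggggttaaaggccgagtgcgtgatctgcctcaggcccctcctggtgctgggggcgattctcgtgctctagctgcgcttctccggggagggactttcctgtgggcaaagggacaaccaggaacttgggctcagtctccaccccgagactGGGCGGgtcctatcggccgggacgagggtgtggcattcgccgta
Anxa10 chr8:62123144-62123443: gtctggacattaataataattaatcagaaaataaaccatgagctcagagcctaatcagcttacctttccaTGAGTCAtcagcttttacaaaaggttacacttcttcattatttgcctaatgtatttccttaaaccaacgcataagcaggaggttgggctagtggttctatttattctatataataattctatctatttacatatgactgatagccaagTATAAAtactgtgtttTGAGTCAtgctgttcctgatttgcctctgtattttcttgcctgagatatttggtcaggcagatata

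The 2 windows differed in composition. The Anxa4 window was 65.3% G and C with 20 CpG and held 1 GC box, and none of the other motifs searched. The Anxa10 window was 34.3% G and C with 1 CpG and held 1 TATA box and 2 AP-1 matches. Over all 32851 windows of the table the median was 52.7% G and C and 7 CpG, and a TATA box was found in 13.6%, a GC box in 35.7%, an AP-1 match in 5.2%, a FOXA match in 3.65%, an E-box in 20.2% and a TEAD match in 14.7%. These matches are letters in a window and do not show binding.

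Taken as a sum, the TMM-scaled CPM of the 10 members was higher in the CD90- fraction. TMM, a normalization of library sizes in edgeR, gave factors of 0.20 to 1.45 in CD90- and 0.99 to 1.95 in CD90+ libraries. The sum is therefore not a share of a library's counts, and the most abundant members ran the other way without TMM. Mean TPM (scaled to library size and transcript length, without TMM) was 45.1 in CD90- and 58.0 in CD90+ for Anxa2. For Anxa1 it was 26.0 and 37.5, and Anxa5, Anxa6, Anxa7, Anxa8 and Anxa11 also had lower means in CD90-. Anxa3, Anxa4 and Anxa10 were higher there, at 9.36, 10.8 and 1.99 against 8.77, 5.50 and 0.48 TPM. The higher sum is therefore stated for TMM-scaled values only. The summed level of the members was 1098, 890, 937, 1216 and 1016 CPM in the CD90- libraries of pools 1 to 5, and 639, 704.8, 822, 818 and 854 CPM in the CD90+ libraries. Every CD90- library lay above every CD90+ library, with a mean of 1031 ± 130 against 767 ± 91.6 CPM (SD, n = 5). The members were chosen with this contrast known, so nothing is read from that separation. Anxa4, on which the choice drew, had means of 119 CPM in CD90- and 33.2 CPM in CD90+. In bulk libraries, fewer cells of a type and less RNA per cell cannot be told apart.

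Of the 10 members, 4 were called higher in the CD90- fraction (Anxa3, Anxa4, Anxa8 and Anxa10), 1 was called lower (Anxa6), and 5 were not called (Anxa1, Anxa2, Anxa5, Anxa7 and Anxa11). A call is an adjusted p under 0.05 in edgeR's quasi-likelihood test over all genes, with the pool as a block. Among all tested genes 5.83% were called higher, 7.05% lower and 12.9% in either direction. The members were chosen with this contrast known, so nothing is read from their count against those shares. Their median log2 fold was 0.38 and that of all genes was 0.04, where a log2 fold is CD90- over CD90+. In 7 members the CD90- library was the higher in 5 of 5 pools, and in 1 it was the lower in 5 of 5, beside 13.5% and 14.9% of all tested genes. Libraries of the fractions did not overlap for 2 members, both higher in CD90-, against 3.32% of all genes in that direction and 4.62% in the other.

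**Figure D1:**
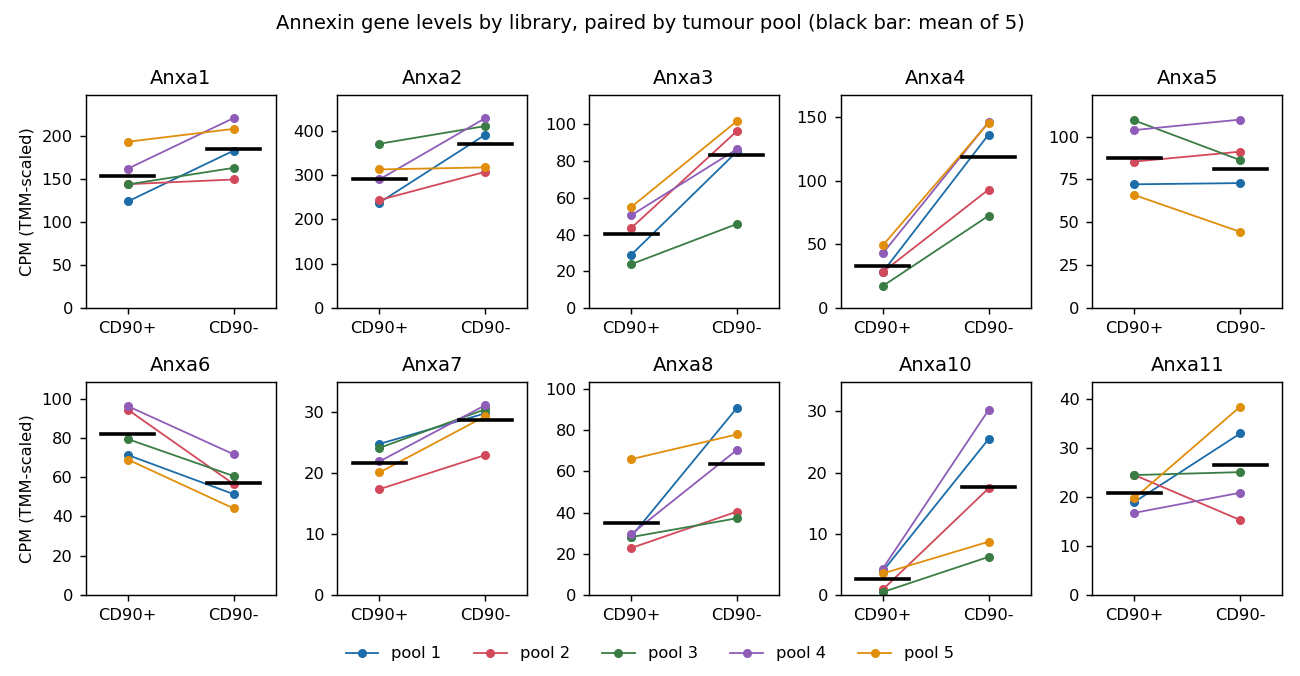
Level of each annexin member (CPM, scaled by TMM) in the CD90+ and CD90- library of each of 5 pools, with a line joining the libraries of a pool and a black bar at the mean of 5. The fractions do not overlap for Anxa4 and Anxa10. The lines of Anxa5 and Anxa11 run in both directions, and those of every other member run in a single direction.

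Anxa4, a calcium-dependent membrane binder known from secretory and absorptive epithelia, had the clearest difference. It lies on chromosome 6 (ENSMUSG00000029994). The CD90- libraries of pools 1 to 5 held 136, 93.0, 72.4, 146 and 145 CPM of Anxa4, and the CD90+ libraries 28.3, 28.3, 17.3, 43.0 and 49.2 CPM. The lowest CD90- library, that of pool 3, stood above the highest CD90+ library, that of pool 5. The fold was 3.67 (log2 1.87, SE 0.15), and the log2 ratios within pools 1 to 5 were 2.26, 1.71, 2.06, 1.76 and 1.56. By p-value Anxa4 ranked 11 among all tested genes, a position that the choice of members used.

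Anxa10, an annexin known from gastric epithelium, had a larger ratio at a lower level. Its level was 25.5, 17.4, 6.24, 30.2 and 8.72 CPM in the CD90- libraries of pools 1 to 5, and 3.91, 0.92, 0.50, 4.33 and 3.54 CPM in the CD90+ libraries. The CD90- libraries of pools 3 and 5 were the lowest of their fraction and still stood above all 5 CD90+ libraries. The log2 fold was 2.95 with an SE of 0.42, wider than that of Anxa4, and the pool ratios ran from 1.29 in pool 5 to 4.16 in pool 2 on the log2 scale.

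Anxa3, known from neutrophils and from several carcinomas, stood at 85.1, 96.2, 45.7, 86.4 and 102 CPM in the CD90- libraries and at 28.9, 43.5, 23.8, 50.4 and 54.9 CPM in the CD90+ libraries of pools 1 to 5. It was higher in 5 of 5 pools, and the fractions overlapped through pool 3, the lowest pool in both. The log2 fold was 1.06 (SE 0.16), with pool ratios of 0.78 to 1.55. Neutrophil markers were at 1.07 to 10.6 summed CPM in the CD90- and 1.34 to 9.49 in the CD90+ libraries, and Ly6g was at 0 in all of them.

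Anxa8, an annexin of epithelial and endosomal membranes, had 90.6, 40.4, 37.2, 70.3 and 77.8 CPM in the CD90- libraries and 28.3, 22.8, 28.1, 29.5 and 65.8 CPM in the CD90+ libraries. The CD90+ library of pool 5 was set apart from the other 4 CD90+ libraries, which lay within 22.8 to 29.5 CPM. The log2 fold was 0.88 (SE 0.22), and the pool ratio ranged from 0.24 in pool 5 to 1.68 in pool 1. Anxa8 lost its call in 6 of 15 other settings and reversed to -0.17 in another, the fit with mitochondrial rRNA as a covariate.

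The summed epithelial markers and these 4 genes were all higher in CD90- in 5 of 5 pools. The summed level of the 12 epithelial markers was 2570, 1342, 723, 2333 and 3063 CPM in the CD90- libraries of pools 1 to 5, and 395, 561, 181, 528 and 1658 CPM in the CD90+ libraries. Pool 3 was the lowest of its fraction for the markers, Anxa3, Anxa4 and Anxa10 on both sides of the sort. Anxa8 was lowest there in CD90-, but its lowest CD90+ library was that of pool 2, at 22.8 CPM. The CD90+ library of pool 5 was the highest CD90+ library for the markers, Anxa3, Anxa4 and Anxa8. Anxa10 did not follow, with its highest CD90+ library in pool 4, at 4.33 against 3.54 CPM in pool 5. Among CD90- libraries pool 5 had the most marker CPM but only 8.72 CPM of Anxa10, against 30.2 CPM in pool 4. The CD90- library of pool 3 held fewer epithelial marker CPM than the CD90+ library of pool 5, whereas its Anxa4 level was 72.4 against 49.2 CPM. The part of epithelial RNA in these differences was not tested. Mitochondrial rRNA took a larger share in CD90- in 5 of 5 pools. With that share as a covariate edgeR called 0 of all genes, and the log2 folds were 1.85 (SE 0.49) for Anxa4, 1.18 (SE 0.51) for Anxa3 and 2.17 (SE 1.33) for Anxa10.

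**Figure D2:**
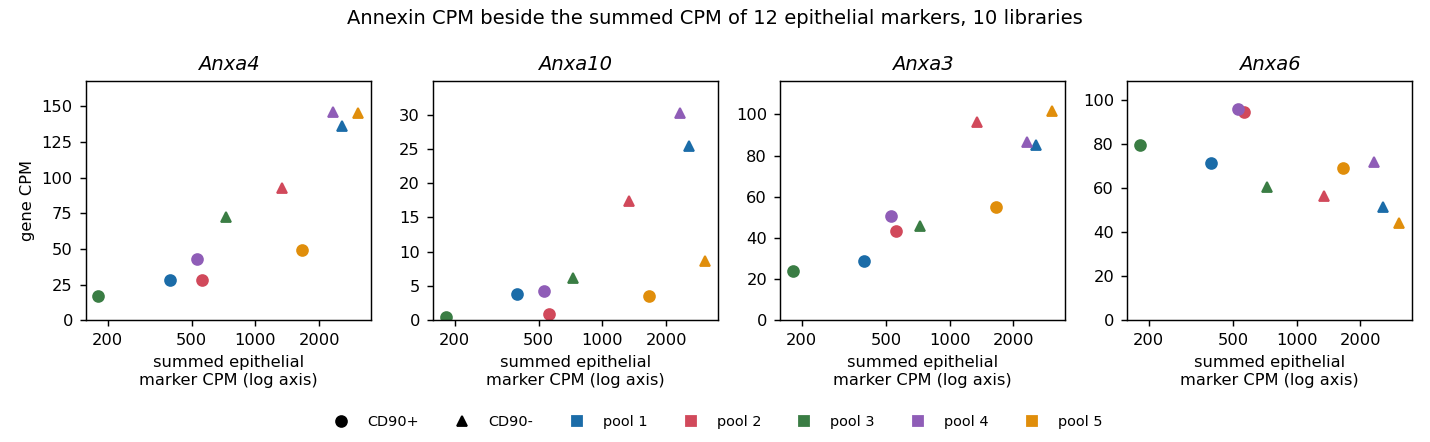
Level of Anxa4, Anxa10, Anxa3 and Anxa6 (CPM, linear axis from 0) against the summed CPM of 12 epithelial markers (log axis) in 10 libraries, coloured by pool, with circles for CD90+ and triangles for CD90-. The CD90+ library of pool 5 lies at 1658 marker CPM, to the right of 2 CD90- libraries, with 49.2 CPM of Anxa4.

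Anxa6 was the member with the opposite difference. It is the largest annexin, with a doubled core, and is linked to endosomal cholesterol transport and to membrane repair. Its level was 51.4, 56.6, 60.6, 71.7 and 44.1 CPM in the CD90- libraries and 71.3, 94.3, 79.4, 96.1 and 69.0 CPM in the CD90+ libraries of pools 1 to 5. In every pool the CD90- library was the lower, and the fractions overlapped only because the CD90- library of pool 4 exceeded the CD90+ libraries of pools 1 and 5. The log2 fold was -0.53 (SE 0.13). Anxa6 kept its call in 7 of 15 other settings and lost it in 8, all with the same direction, between -0.66 and -0.48. Fibroblast markers were lower in 5 of 5 CD90- libraries as well, by a median log2 fold of -2.32, and their part in the Anxa6 difference was not tested.

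The most abundant members differed little. Anxa2, which pairs with S100a10 and binds plasminogen activators at the cell surface, stood at 391, 307, 411, 429 and 318 CPM in the CD90- libraries and at 238, 244, 371, 290.4 and 313 CPM in the CD90+ libraries. It was higher in 5 of 5 pools, but by only 0.02 on the log2 scale in pool 5, and the fractions overlapped. Its log2 fold was 0.36 (SE 0.15).

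Anxa1, a glucocorticoid-regulated protein that signals through formyl peptide receptors, had 183, 149, 163, 220.3 and 208 CPM in the CD90- libraries and 124, 144, 143, 162 and 193 CPM in the CD90+ libraries. Every pool had the higher value in CD90-, with log2 ratios of 0.05 to 0.56 and a fitted log2 fold of 0.27 (SE 0.14). Anxa5, the phosphatidylserine binder used to detect dying cells, was on both sides of 0. Its CD90- libraries held 72.9, 91.2, 86.3, 109.9 and 44.4 CPM and its CD90+ libraries 72.2, 85.4, 109.4, 104 and 65.9 CPM, with the CD90- library higher in 3 of 5 pools and a log2 fold of -0.14 (SE 0.15).

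Anxa7 and Anxa11 are members with long tails, and Anxa11 is known as a tether of RNA granules to lysosomes. Anxa7 stood at 29.8, 23.0, 30.5, 31.2 and 29.4 CPM in the CD90- and 24.8, 17.4, 24.2, 21.9 and 20.1 CPM in the CD90+ libraries, higher in 5 of 5 pools with a log2 fold of 0.41 (SE 0.16). Its pool ratios were narrow, from 0.26 to 0.54 on the log2 scale, and the overlap came from pool 2, the lowest pool of both fractions. Anxa11 held 33.0, 15.4, 25.1, 20.9 and 38.5 CPM in the CD90- and 19.1, 24.6, 24.5, 16.8 and 19.8 CPM in the CD90+ libraries. Pool 2 ran against the other 4 pools, with a log2 ratio of -0.68, and the fitted log2 fold was 0.29 (SE 0.25).

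**Figure D3:**
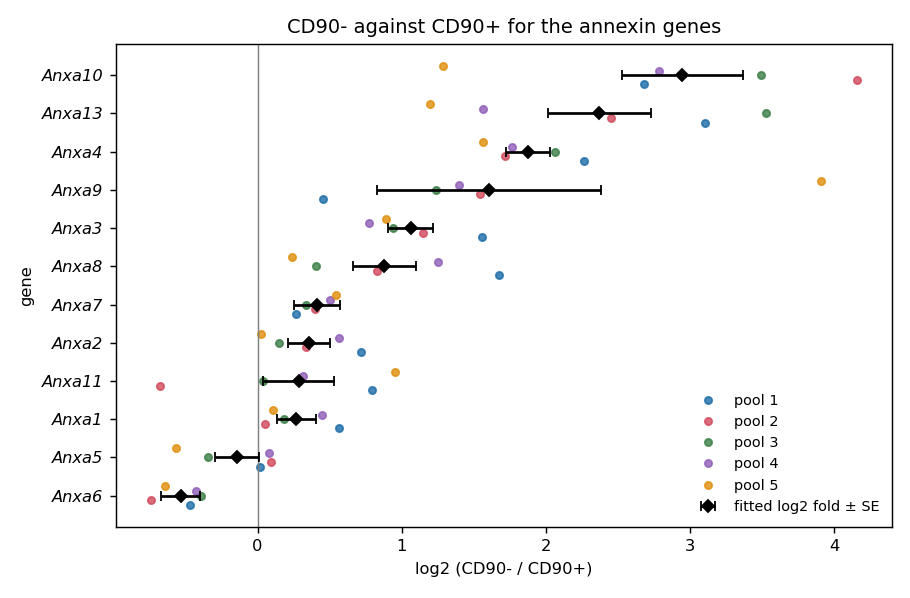
Log2 fold of CD90- over CD90+ for 12 annexin genes, with black diamonds and bars for the fitted value ± SE and coloured points for the ratio within each of 5 pools. Anxa6 lies left of 0 in every pool, Anxa5 and Anxa11 have pools on both sides of 0, and all other genes lie right of 0 in every pool.

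Anxa13 and Anxa9 were not among the selected genes, and their values come from the fit on all genes. They were listed with earlier results of these data known, so their p-values are not free of that knowledge. Anxa13, an annexin of intestinal epithelium, rose by 2.37 on the log2 scale in the CD90- fraction (SE 0.36, adjusted p = 0.0059, edgeR). Its level was 147, 81.9, 44.2, 148 and 220.2 CPM in the CD90- libraries of pools 1 to 5 against 17.1, 14.9, 3.77, 49.8 and 96.2 CPM in the CD90+ libraries. It was higher in 5 of 5 pools, and the CD90+ library of pool 5 again lay above the others of its fraction. The value rests on the 1 Anxa13 transcript matched in the files, which GENCODE M21 lists as a processed transcript. Without the pool as a block its adjusted p was 0.18. Anxa9, an annexin with altered calcium sites, was at 2.59 ± 1.47 CPM in the CD90- and 1.02 ± 0.65 CPM in the CD90+ fraction (SD, n = 5), and its difference did not pass (log2 1.61, SE 0.78, adjusted p = 0.225, edgeR).

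Levels of different annexins were compared per length, as TPM (scaled to library size and divided by transcript length) summed per gene. Because mitochondrial and other RNA takes a varying part of each library's TPM, only the order within a library is read here. In the CD90+ fraction the order was Anxa2, Anxa1, Anxa5, Anxa3, Anxa6, Anxa4, Anxa8, Anxa7, Anxa11 and Anxa10, from a mean of 58.0 ± 22.0 TPM for Anxa2 to 0.48 ± 0.27 TPM for Anxa10 (SD, n = 5). In the CD90- fraction it was Anxa2, Anxa1, Anxa4, Anxa3, Anxa5, Anxa8, Anxa6, Anxa7, Anxa10 and Anxa11, from 45.1 ± 37.1 to 1.63 ± 1.21 TPM. Anxa4 thus stood at place 6 in CD90+ (5.50 ± 1.21 TPM) and at place 3 in CD90- (10.8 ± 4.37 TPM). Apart from the directions given with the summed level, these means are not compared between the fractions. That of Anxa2 was lower in CD90-, whereas its TMM-scaled CPM was higher there.

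Neighbours in the order were compared by exact sign flips over the 5 pools (two-sided), for which 0.0625 is the smallest p that 5 pools allow. In CD90+ libraries 5 of 9 neighbouring pairs had the same order in all 5 libraries (Anxa2 over Anxa1, Anxa1 over Anxa5, Anxa5 over Anxa3, Anxa8 over Anxa7 and Anxa11 over Anxa10), each with an exact p of 0.0625, or 0.161 adjusted over 18 pairs. In CD90- libraries 2 of 9 pairs did so (Anxa2 over Anxa1 and Anxa1 over Anxa4), with the same p. The other neighbours, such as Anxa4 and Anxa3 in CD90- or Anxa4 and Anxa8 in CD90+, did not keep 1 order in all 5 libraries. The order was taken from these same values and 5 pools cannot give a p under 0.05. The test therefore separates no pair, and the counts of libraries are a description.

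**Figure D4:**
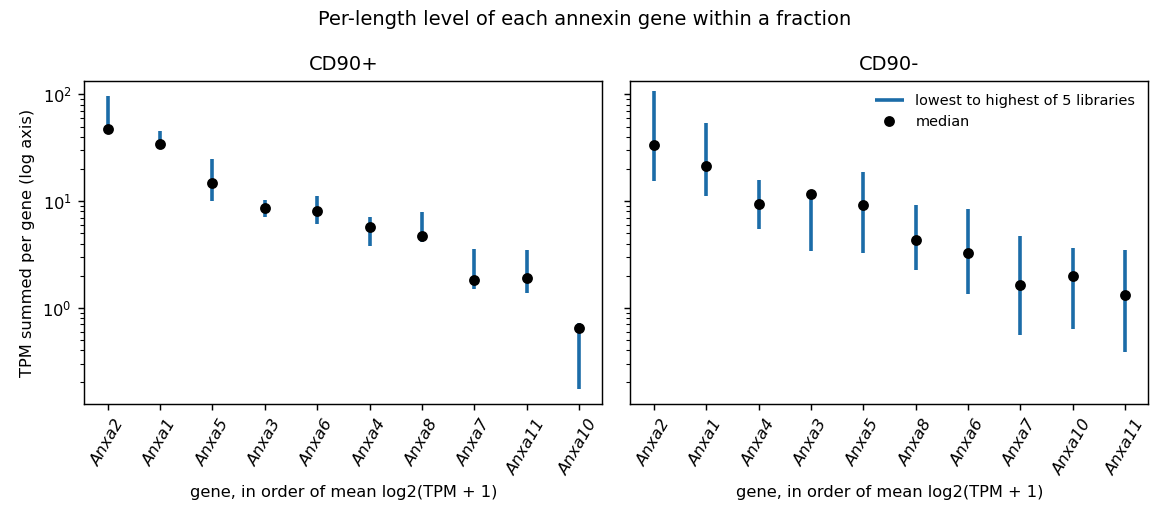
Per-length level of each annexin member (TPM summed per gene, log axis) within the CD90+ and the CD90- libraries, as the median (point) and the lowest to highest of 5 libraries (line), in order of mean log2(TPM + 1). Anxa2 and Anxa1 lead in both fractions, and Anxa10 is last in CD90+ at a median of 0.65 TPM.

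Transcript shares were read from the estimated counts of single transcripts and were not part of the choice of members. They depend on how Salmon divided reads between nearly identical transcripts, and no test was run on them. The long form of Anxa6, whose junction is shown above, made up 45.4%, 70.9%, 60.1%, 71.7% and 47.1% of the long and short forms in the CD90- libraries of pools 1 to 5, and 35.3%, 28.9%, 43.3%, 34.5% and 100% in the CD90+ libraries. It was the larger share in CD90- in pools 1 to 4 and the smaller in pool 5, where no count of the short form was assigned in the CD90+ library. With that library the CD90+ mean was 48.4% ± 29.3, against 59.1% ± 12.5 in CD90- (SD, n = 5). The counts behind these shares ran from 598 to 4919.

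Anxa4 has an upstream start, the one whose window is shown above, and transcripts that begin further downstream. The upstream start gave 3 of its 9 annotated transcripts and 89.2%, 88.9%, 91.3%, 91.5% and 84.8% of its counts in the CD90- libraries, against 99.0%, 92.7%, 93.8%, 92.5% and 91.7% in the CD90+ libraries. The share was lower in CD90- in 5 of 5 pools, with means of 89.1% ± 2.69 and 93.9% ± 2.94 (SD, n = 5), and the upstream start was the main one in all 10 libraries. The other Anxa4 transcripts include forms annotated as retained-intron or nonsense-mediated decay, so the share does not measure start use alone. The decay form held a mean of 3.89% in CD90- and 1.33% in CD90+, and the main retained-intron form 1.85% and 2.62%.

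**Figure D5:**
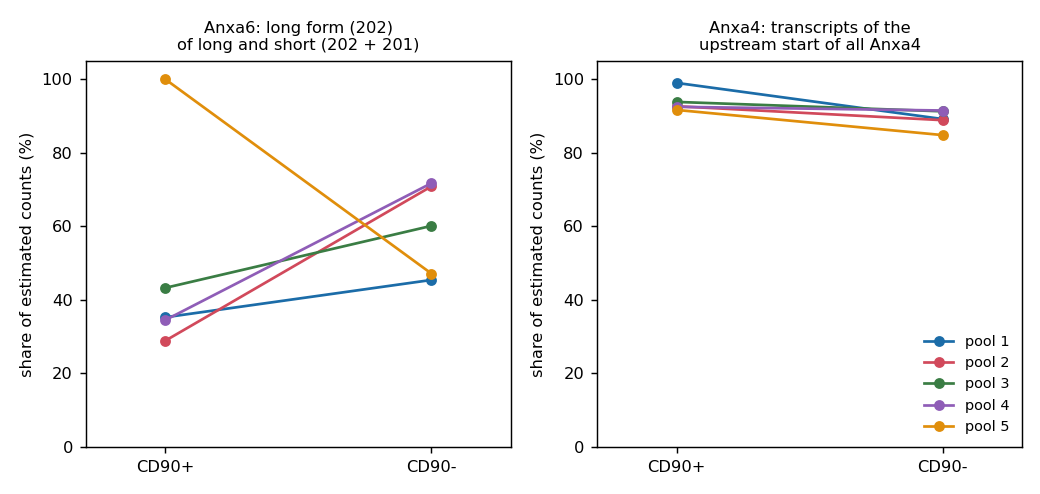
Share of estimated counts (%) of the Anxa6 long form among long and short forms (left) and of the upstream start among all Anxa4 transcripts (right), in the CD90+ and CD90- library of each of 5 pools, joined by a line. The CD90+ library of pool 5 is at 100% for Anxa6, apart from the 28.9% to 43.3% of the other CD90+ libraries, and the Anxa4 shares all lie between 84.8% and 99.0%.

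Related genes were examined in 5 lists that hold 53 genes, 49 of them tested. No call among them held with the mitochondrial rRNA covariate. The lists were not picked from the annexin values, but they were drawn up with earlier results of these data known. Of the 49, 4 were called higher and 5 lower, with a median log2 fold of 0.01, beside the 5.83% and 7.05% of all genes. The same called gene, Ahnak, is in 2 lists.

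Of 8 protein partners 2 rose and none fell. S100a6, a calcium-binding partner of several annexins, rose by 0.66 on the log2 scale (SE 0.15, adjusted p = 0.018, edgeR), from 120 ± 18.9 to 188 ± 21.3 CPM. Ahnak, a giant scaffold recruited to membranes with Anxa2 and S100a10, rose by 0.71 (SE 0.17, adjusted p = 0.021, edgeR). Both calls were lost without pool 1 (adjusted p = 0.104 and 0.118), without pool 2 (0.0524 and 0.101) and without pools 4 and 5 (0.0819 and 0.0720, edgeR). That of S100a6 was also lost without pool 4 (0.0728) and that of Ahnak without the block (0.0788). S100a10 and S100a11, the dimer-forming partners of Anxa2 and Anxa1, had log2 folds of 0.06 (SE 0.18) and 0.11 (SE 0.16) and did not pass. S100a10 was at 91.8 ± 19.0 CPM in CD90- and 89.0 ± 21.03 CPM in CD90+ (SD, n = 5), while its partner Anxa2 was at 371 ± 55.2 and 291 ± 54.5 CPM.

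Of 5 tested genes for annexin receptors and plasmin assembly none rose and 2 fell. Plat, the tissue plasminogen activator that binds Anxa2 at the cell surface, fell by 1.04 on the log2 scale (SE 0.13, adjusted p = 0.0025, edgeR), from 164 ± 59.7 to 82.4 ± 41.1 CPM. Plau, the urokinase activator, fell by 0.80 (SE 0.22, adjusted p = 0.042, edgeR). Without the block neither call held (adjusted p = 0.0855 for Plat and 0.279 for Plau, edgeR). The Plau call was also lost with the length offset (0.0762), without pools 4 and 5 (0.110) and without pool 1, 2, 3 or 4 (0.0508 to 0.167). The receptor genes Fpr1 and Fpr2, through which Anxa1 signals, held too few counts to be tested.

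Of 17 membrane repair genes 2 rose and 1 fell. Myof, a ferlin of membrane fusion and resealing, rose by 0.86 on the log2 scale (SE 0.14, adjusted p = 0.0056, edgeR), and its CD90- libraries did not overlap with the CD90+ libraries (370 ± 41.7 against 203 ± 19.5 CPM). Ahnak was the other that rose. Ehd2, a membrane-bending ATPase of caveolae, fell by 0.63 (SE 0.16, adjusted p = 0.030, edgeR). The Ehd2 call was lost without the block (0.306), with the length offset (0.0665), without pools 4 and 5 (0.230) and without pool 1, 2, 4 or 5 (0.0729 to 0.108). The Myof call was lost without pools 4 and 5 (adjusted p = 0.0595, edgeR).

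Of 10 genes of phosphatidylserine exposure and bridging 1 rose and 2 fell. Atp8a1, a flippase that returns phosphatidylserine to the inner leaflet, rose by 2.34 on the log2 scale (SE 0.36, adjusted p = 0.0056, edgeR). Atp11a, another flippase, fell by 1.27 (SE 0.21, adjusted p = 0.0058, edgeR), and Gas6, a bridging ligand that links exposed phosphatidylserine to receptor kinases, fell by 1.59 (SE 0.22, adjusted p = 0.0035, edgeR). None of 12 tested genes among the copines, extended synaptotagmins and other calcium-dependent lipid binders was called in either direction. The Atp8a1 call was lost without the block (adjusted p = 0.272, edgeR) and the Atp11a and Gas6 calls without pools 4 and 5 (0.0859 and 0.0508).

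Genes with patterns most like Anxa4 and Anxa6 were ranked by Pearson's r of log2 CPM over the 10 libraries, among the 6834 tested genes whose log2 CPM averaged 3 or more. The points share the 2 fractions and the 5 pools, so these values are a description. For Anxa4 they were Dnase2a (r = 0.97), a lysosomal nuclease, Mapk3 (0.97), the kinase ERK1, AC102496.1 (0.97), Plpp2 (0.97), a lipid phosphatase, and Itga2 (0.96), a collagen-binding integrin chain. For Anxa6 they were Adprh (0.93), Abtb2 (0.92), Slc7a2 (0.92), a cationic amino acid transporter, Cald1 (0.91), the actin-binding caldesmon, and Morf4l2 (0.91). The genes most like Anxa4 all had CD90- means above CD90+ means, such as 82.6 against 14.7 CPM for Itga2, and those most like Anxa6 had the reverse, such as 455 against 1635 CPM for Cald1.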

How the data were processed

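Total RNA of 10 sorted fractions (5 pools, CD90- and CD90+) was made into libraries with a stranded low-input kit from 0.1 to 1.2 ng of RNA, per the labels' protocols. The authors deposited an estimated count and a TPM for each transcript from Salmon 1.9.0, on GRCm39 (mm39), per the submitters' processing notes. The annotation release is not given in the sources used here, nor is the strand setting. Paralogs and isoforms were divided by Salmon's model, so their values are estimates.

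Transcript identifiers were matched without version to GENCODE M21 (133666 of 144584, 92.4%), used for names, structures and the Anxa6 junction. The unmatched held 3.63% to 12.1% of a library's counts. Estimated counts were summed per gene, rounded, and compared by the quasi-likelihood test of edgeR 4.0.16 (R 4.3.3, filterByExpr, TMM, pool as a block, Benjamini-Hochberg, threshold of 0.05), after the script was tested on simulated data. Standard errors follow from the F statistic. CPM use the TMM-scaled library size. Across genes, paired libraries deviated from the means of their fractions with correlations of 0.06, 0.00, 0.46, 0.03 and 0.19 in pools 1 to 5, and the pairing comes from the animal numbers in the titles. No 2 libraries of a fraction agreed within counting noise (chi-square per degree of freedom of at least 39.2). The labels name no molecular identifiers, so reads may not be independent molecules, and p-values measure the spread over pools.

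The members, the lists and the settings were chosen with earlier results of these data known. Named are all annexins, every called gene of a related list, S100a10 and S100a11, and the 5 genes most correlated with Anxa4 and with Anxa6 (no Gm, Rik or pseudogene symbols). Other settings were no block, RLE factors, DESeq2 1.42.0, limma-voom 3.58.1, other filters, no mitochondrial genes, a length offset, a mitochondrial rRNA covariate, each pool left out, and pools 4 and 5 left out. Promoter windows came from RefSeq (GRCm38.p6).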

Additional observations from a re-analysis of the deposited data

Results flagged for a closer look

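Each fraction of 5 libraries was examined for a single library far from the rest, by Dixon's test at the 95% level, over the CPM of the 12 annexin genes and the 2 transcript shares described. Of 28 groups 3 had such a library, where chance gives about 1 in 20. For Anxa7 it was the CD90- library of pool 2, at 23.0 CPM below the other 4. For Anxa8 it was the CD90+ library of pool 5, at 65.8 CPM above the other 4. For the Anxa6 long form it was also the CD90+ library of pool 5, at a share of 100%. In that library all counts of Anxa7, of Anxa8 and of Anxa11 were likewise assigned to a single transcript of each gene. That library had the second fewest counts on nuclear coding genes, 4.57 M (M, mega), and the highest epithelial marker level of its fraction. The part of either in these values was not tested.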

How the results depend on the processing

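The log2 folds of Anxa3, Anxa4 and Anxa10 kept their direction and call in every setting run except the mitochondrial rRNA covariate. Anxa6 lost its call in 8 of 15 settings: no block, length offset, that covariate, without pools 4 and 5, and without pool 1, 2, 4 or 5. Anxa8 lost its call in 6: no block, length offset, without pools 4 and 5, and without pool 1, 2 or 4. Without the replicate block, 421 genes were higher and 544 lower (896 and 1084 with the pairing), no member was lower (0), and 2 and 3 related genes were higher and lower. DESeq2 gave 1638 and 1814 genes, with 7 and 9 related genes. Without pools 4 and 5 it was 357 and 184 genes, 0 members lower, and 1 and 2 related genes. The length offset gave 0 members lower, and no filter gave 10 related genes lower. With the covariate no gene was called (0 higher and 0 lower, by edgeR, with 882 at an unadjusted p under 0.05), so 0 members and 0 related genes were called either way, and 2 members had an unadjusted p under 0.05, with a smallest adjusted p of 0.751. It reversed Anxa1 (-0.057), Anxa2 (-0.19), Anxa8 (-0.17), S100a10 (-0.61) and Plau (0.35). S100a10 ran from -0.024 to 0.23 with a pool left out, and changed sign without pool 1 (-0.017) or 2 (-0.024). Leaving out each pool in turn gave 308 to 820 genes higher and 367 to 1199 lower, 3 to 4 members higher and 0 to 1 lower, 2 to 5 related genes higher and 3 to 6 lower, and 2 to 4 neighbours in 1 order in CD90- and 5 to 6 in CD90+. The cause of these changes was not tested. Fewest nuclear coding counts, 3.71 M, limit the CD90- library of pool 4.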

Other observations

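Other transcript shares of the annexins varied widely between libraries. The transcript of Anxa7 that begins downstream held 16.5% to 100% of its 3 coding transcripts in the CD90+ and 35.9% to 91.6% in the CD90- libraries, over 205 to 1418 counts. The Anxa7 transcript with an added exon of 66 bases was at 0 in 8 of 10 libraries, and made up 0.85% in the CD90- and 6.28% in the CD90+ library of pool 3. The shorter coding transcript of Anxa10 (1222 against 1763 bases) held 51.2% to 90.9% of the coding Anxa10 counts in the CD90- libraries and 0% to 100% in the CD90+ libraries, where the counts were as few as 18. In contrast, the main transcripts of Anxa2 and Anxa5 held 87.1% to 98.6% and 88.5% to 98.3% of their genes' counts in all 10 libraries.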
